A study of Mus musculus with 16 samples.

Results

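Srebf2 and 7 enzymes of the sterol pathway, Hmgcs1, Idi1, Fdps, Fdft1, Sqle, Lss and Dhcr7, were followed by their gene symbols through the deposited expression table, and all 8 of the 45777 genes listed there were found. The RNA came from tumors of B16F10, a melanoma cell line derived from C57BL/6 mice, injected under the skin of 6-week-old hosts. Lean hosts were wild-type C57BL/6J mice, and obese hosts were ob/ob mice, which lack leptin. Tumors were sampled before therapy (B6_ctrl and ob_ob_ctrl) or after etoposide (B6_ETS and ob_ob_ETS), a topoisomerase poison given into the peritoneum as 5 injections of 20 mg per kg and called ETS below. Each of the 4 groups held 4 tumors, called by the numbers of their labels. All tumors grew from 1 cell line, and no tumors given vehicle alone were analysed here, so that the drug and the later time of sampling cannot be told apart. Whole tumors also hold host cells, and in such samples fewer cells of a type cannot be told apart from less RNA per cell.

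Cells sense the cholesterol in their endoplasmic reticulum through Scap, which carries the membrane-bound SREBP2 protein, encoded by Srebf2, to the Golgi when sterol is scarce. There SREBP2 is cleaved, and its released part enters the nucleus and switches on genes for the synthesis and uptake of cholesterol, its own gene included. Because much of this control acts on the protein, the mRNA level of Srebf2 is no direct measure of its activity.

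Of the 8 genes, 5 had promoter windows in the RefSeq table of GRCm38.p6, and the 250 bases before an annotated start are shown for Srebf2 and for 3 enzymes whose mRNA fell in both hosts. They lie on the plus strand at chr15:82147019-82147268 (Srebf2), chr13:119690101-119690350 (Hmgcs1), chr13:8885356-8885605 (Idi1) and chr10:76531355-76531604 (Lss), where the window of Lss runs into the gene's outermost annotated span. Capitals mark the sterol element core TCACCCCA and the box CCAAT, each searched on both strands, so that the box reads as ATTGG where it lies on the minus strand.
Srebf2: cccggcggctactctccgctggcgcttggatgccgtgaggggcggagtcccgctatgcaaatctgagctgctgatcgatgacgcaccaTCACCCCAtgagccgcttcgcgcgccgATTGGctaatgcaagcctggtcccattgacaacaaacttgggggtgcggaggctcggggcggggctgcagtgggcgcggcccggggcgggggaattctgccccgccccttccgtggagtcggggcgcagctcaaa
Hmgcs1: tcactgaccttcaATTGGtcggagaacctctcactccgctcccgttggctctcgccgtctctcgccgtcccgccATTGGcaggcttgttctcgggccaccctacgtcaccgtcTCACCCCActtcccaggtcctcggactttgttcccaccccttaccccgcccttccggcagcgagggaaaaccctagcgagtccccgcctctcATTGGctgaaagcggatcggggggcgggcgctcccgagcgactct
Idi1: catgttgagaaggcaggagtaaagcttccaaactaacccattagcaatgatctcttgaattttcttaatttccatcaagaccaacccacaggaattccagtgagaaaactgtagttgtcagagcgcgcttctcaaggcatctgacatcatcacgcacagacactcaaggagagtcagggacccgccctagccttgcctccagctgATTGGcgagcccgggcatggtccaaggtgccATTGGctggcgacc
Lss: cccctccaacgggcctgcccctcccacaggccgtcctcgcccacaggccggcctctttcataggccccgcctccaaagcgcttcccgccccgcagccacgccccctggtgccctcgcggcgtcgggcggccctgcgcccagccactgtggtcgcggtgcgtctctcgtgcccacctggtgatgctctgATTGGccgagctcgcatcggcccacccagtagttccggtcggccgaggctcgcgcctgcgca
The sterol element core was present in the windows of Srebf2, 155 to 162 bases before the start, and of Hmgcs1, 130 to 137 bases before it. It was present in 1.34% of all 32851 windows of this length. No match to these letters was found in the windows of Idi1 and Lss or in the 3 windows of Dhcr7. The box CCAAT occurred in the windows of all 4 genes shown and in 33.8% of all windows, and no marked match overlapped another. These matches describe the letters and not binding.

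Total counts ranged from 47199949 to 61655287 per tumor, and 16209 genes with no count of 0 in any tumor were tested, all 8 genes among them. Levels are given as CPM, counts scaled to library size by TMM, and tests are edgeR's quasi-likelihood tests with Benjamini-Hochberg adjustment over the 16209 genes, called at an adjusted p under 0.05. In all tumors 7 melanocyte markers were present, with a summed level between 10690 and 26070 CPM, as the label of melanoma cells requires. Marker levels also moved with the groups. The median sum of the melanocyte markers went from 21130 (range 18070 to 22650) to 24500 CPM after ETS in lean tumors. In obese tumors it went from 13540 (11170 to 15090) to 18210 CPM. Before therapy 3 of these 7 genes were called lower in obese than in lean tumors, where 12.9% of all tested genes were lower. The median summed level of 5 proliferation genes went from 1438 to 722 CPM after ETS in lean and from 1470 to 632 CPM in obese tumors. That of 8 macrophage markers, none of them at 0 in any tumor, went from 871 (range 359 to 1167) to 198 CPM (46.8 to 355) in lean tumors and from 98.4 (40.2 to 230) to 477 CPM (293 to 944) in obese tumors. That of 7 fibroblast markers went from 1170 to 228 CPM in lean and from 276 to 1382 CPM in obese tumors. The median of 8 interferon response genes went from 1041 to 373 CPM in lean and from 84.0 to 379 CPM in obese tumors, that of 4 endothelial markers from 108 to 88.5 and from 55.4 to 108 CPM, and that of 6 adipocyte markers from 16.5 to 12.6 and from 43.3 to 129 CPM. The summed T cell markers lay between 11.04 and 21.2 CPM in lean tumors before therapy and at or below 1.05 CPM in all other tumors. Muscle markers were at 165 and 42.2 CPM in lean tumors 2 and 4 before therapy, at 239 and 166 CPM in lean tumors 1 and 2 after ETS and at 306 CPM in obese tumor 2 after ETS, against at most 4.42 CPM in the other tumors, and keratinocyte markers reached 110.3 CPM in obese tumor 2 after ETS. The part of these changes in the results below was not tested. Obese tumor 4 after ETS stood apart by its fibroblast markers, with the highest summed level of all tumors (5692 CPM). Its melanocyte markers were the lowest (10690 CPM), though obese tumors 3 and 4 before therapy were near, at 12500 and 11200 CPM. All 8 genes were lowest in this tumor within its group, so that results are also given without it. In obese tumor 1 before therapy, on the other side of the same comparison, all 8 genes were highest within its group.

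Compared per transcript length, as TPM, Fdps was the most abundant and Lss the least abundant of the 8 mRNAs in every group. Before therapy in lean tumors Fdps, which makes farnesyl diphosphate, was at 574 ± 28.01 TPM (SD, n = 4 tumors), above 98.6% of the tested genes. Dhcr7, which reduces 7-dehydrocholesterol to cholesterol, followed at 155 ± 11.2 TPM, and Sqle, the squalene epoxidase, at 129 ± 17.3 TPM. Srebf2 at 115 ± 13.1 TPM and Hmgcs1 at 99.3 ± 29.2 TPM came next, and neither the step from Sqle to Srebf2 nor that from Srebf2 to Hmgcs1 was larger than their spread. Idi1 at 48.3 ± 6.32 TPM, Fdft1 at 43.3 ± 6.98 TPM and Lss at 32.3 ± 6.33 TPM were the least abundant, and Idi1 and Fdft1 differed by less than their spread.

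**Figure D1:**
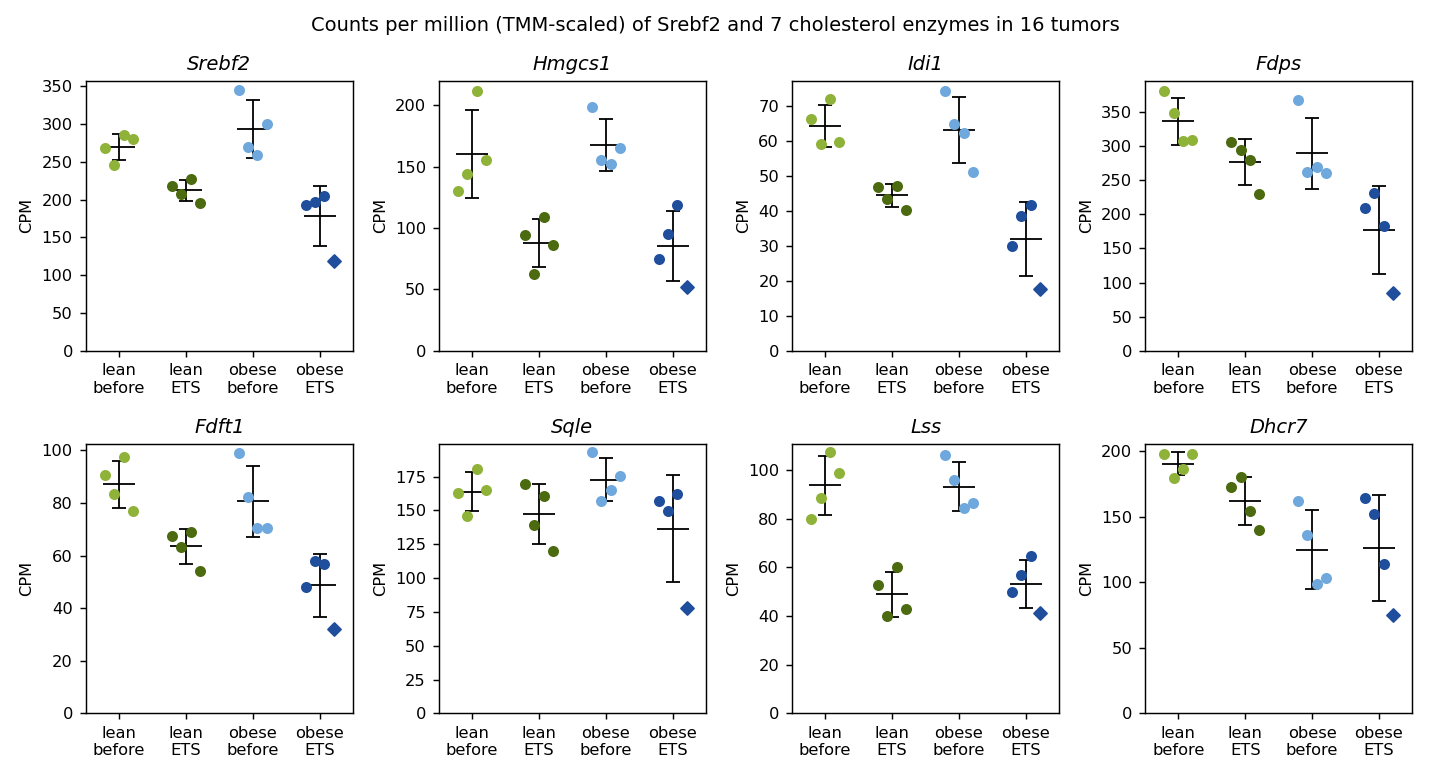
Each point is the CPM of a tumor, with the 4 groups on the x axis, the long bar at the group mean and the whiskers at 1 SD (n = 4 tumors). Obese tumor 4 after ETS is drawn as a diamond and is the lowest of its group in all 8 panels.

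In lean mice, 4 of the 8 mRNAs fell after ETS, namely Lss, Hmgcs1, Idi1 and Fdft1, and no mRNA of the 8 rose. Over all tested genes 22.8% fell and 21% rose, and with a fold limit of 2 and an unadjusted p under 0.05 in place of the adjusted p, 8.63% of all genes but 0 of the 8 fell. Their median change on the log2 scale was -0.40, against -0.015 over all genes tested, and all 8 values were below 0. In 6 of the 8 genes every tumor after ETS lay below every tumor before therapy, where groups did not overlap, in either direction, in 41.2% of all tested genes.

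In obese mice, 6 of the 8 mRNAs fell after ETS, those of Srebf2, Hmgcs1, Idi1, Fdps, Fdft1 and Lss, and again no mRNA rose. Here 19% of all tested genes fell and 21.2% rose, and at the fold limit of 2, 2.44% of all genes and 0 of the 8 fell. Their median change on the log2 scale was -0.72, against 0.0066 over all genes, and the groups did not overlap in 6 of the 8 genes, against 34.2% of all tested genes. Without obese tumor 4 after ETS, 6 of the 8 were called in obese tumors and 5 in lean tumors, the fifth being Srebf2. Without obese tumor 1 before therapy, 5 of the 8 were called in obese tumors, and the call of Fdps was lost.

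Srebf2 (gene ID 20788, GRCm38.p6 chromosome 15, from 82147269 to 82205379) encodes the factor itself. Its levels in lean tumors 1 to 4 were 268, 245, 285 and 280.0 CPM before therapy and 218, 208, 227 and 196 CPM after ETS. In obese tumors they were 345, 269, 259 and 299.9 CPM before therapy and 193, 196, 205 and 119 CPM after ETS. In both hosts the tumors after ETS lay below all tumors before therapy. The log2 fold change in obese tumors was -0.72 (standard error 0.14, adjusted p = 0.00133, edgeR). In lean tumors it was -0.35 (standard error 0.14, adjusted p = 0.0590, edgeR) and did not pass the threshold. Without obese tumor 4 after ETS these values were -0.56 (adjusted p = 0.00105) and -0.37 (adjusted p = 0.00611, edgeR). That tumor enters the lean comparison through the estimate of the spread that all groups share. It also enters through the set of tested genes and the scaling, which were computed anew without it. Srebf2 passed the threshold in lean tumors in 5 of 26 alternatives.

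Hmgcs1 (gene ID 208715, chromosome 13 from 119690351 to 119708260) encodes the cytosolic HMG-CoA synthase, which acts early in the pathway, before mevalonate. Lean tumors had 130.2, 144, 212 and 155 CPM before therapy and 94.4, 62.4, 109 and 86.5 CPM after ETS. Obese tumors had 199, 155, 152 and 165 CPM before therapy and 74.5, 94.8, 119 and 52.1 CPM after ETS. The groups did not overlap in either host, and the level after ETS was 54.9% of that before therapy in lean and 50.8% in obese tumors. The log2 fold changes were -0.87 (standard error 0.22, adjusted p = 0.00645) and -0.98 (standard error 0.23, adjusted p = 0.00353, edgeR).

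Idi1 (gene ID 319554, chromosome 13 from 8885606 to 8892396) isomerizes isopentenyl diphosphate, the unit from which sterols and other isoprenoids are built. Its levels were 66.3, 58.96, 71.9 and 59.7 CPM in lean tumors before therapy and 46.8, 43.5, 47.1 and 40.1 CPM after ETS. In obese tumors they were 74.2, 64.8, 62.3 and 51.1 CPM before therapy and 29.95, 38.5, 41.6 and 17.7 CPM after ETS. No tumor after ETS reached the level of a tumor before therapy in the same host. The log2 fold change was -0.53 in lean (standard error 0.19, adjusted p = 0.0360) and -0.98 in obese tumors (standard error 0.20, adjusted p = 0.00136, edgeR). The call in lean tumors was lost in 7 of 26 alternatives, with an adjusted p of up to 0.0919 without lean tumor 3 before therapy.

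Fdps (gene ID 110196, chromosome 3 from 89093588 to 89101967) joins these units to farnesyl diphosphate, which also feeds the prenylation of proteins. Lean tumors held 381, 348, 308 and 308 CPM before therapy and 307, 294, 279 and 229 CPM after ETS, and obese tumors 367, 262, 269 and 260.1 CPM before therapy and 209.8, 231, 183 and 85.1 CPM after ETS. The lean groups were separated by less than 2 CPM. The log2 fold change was -0.71 in obese tumors (standard error 0.23, adjusted p = 0.0215) and -0.28 in lean tumors (standard error 0.22, adjusted p = 0.327, edgeR). In obese tumors it was -0.57 without obese tumor 1 before therapy (adjusted p = 0.0675, edgeR) and -0.47 without obese tumor 4 after ETS (adjusted p = 0.0153, edgeR). With only the obese groups in the fit its adjusted p was 0.0721.

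Fdft1 (gene ID 14137, chromosome 14 from 63145150 to 63181687) encodes squalene synthase, the first step committed to sterols. Its levels were 90.5, 83.5, 97.3 and 76.9 CPM in lean tumors before therapy and 67.3, 63.3, 69.1 and 54.2 CPM after ETS. Obese tumors had 99.1, 82.3, 70.5 and 70.6 CPM before therapy and 47.9, 57.8, 56.8 and 31.96 CPM after ETS. The groups were apart in both hosts, and the log2 fold change was -0.46 in lean (standard error 0.16, adjusted p = 0.0330) and -0.73 in obese tumors (standard error 0.16, adjusted p = 0.00293, edgeR). The lean call was lost in 6 of 26 alternatives. Fdft1 overlaps Ctsb, a lysosomal protease gene on the other strand, and the use of strand in counting is not stated, which makes its values less certain.

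Sqle (gene ID 20775, chromosome 15 from 59315092 to 59331193) encodes a rate-limiting step after squalene and was called in neither host. Its levels were 163, 146, 181 and 165 CPM in lean tumors before therapy and 169.7, 139.5, 161 and 120.2 CPM after ETS, with overlap. In obese tumors they were 193, 157, 165 and 175 CPM before therapy and 157, 149, 162 and 78.1 CPM after ETS. The log2 fold changes were -0.15 (95% interval -0.53 to 0.23, adjusted p = 0.518) and -0.34 (-0.72 to 0.042, adjusted p = 0.144, edgeR), and the latter was -0.14 without obese tumor 4 after ETS.

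Lss (gene ID 16987, chromosome 10 from 76531565 to 76557139) closes the ring system as lanosterol synthase and had the lowest p of the 8 genes in both hosts. Lean tumors had 79.8, 88.5, 107 and 98.6 CPM before therapy and 52.9, 39.99, 60.04 and 42.8 CPM after ETS. Obese tumors had 106, 95.9, 84.1 and 86.3 CPM before therapy and 50.03, 57.01, 64.5 and 41.3 CPM after ETS. The ranges lay well apart in both hosts. The log2 fold change was -0.93 in lean (standard error 0.15, adjusted p = 0.000242) and -0.81 in obese tumors (standard error 0.15, adjusted p = 0.000889, edgeR). The antisense gene 4930483K19Rik overlaps it.

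Dhcr7 (gene ID 13360, chromosome 7 from 143823167 to 143848410) stood apart by its level before therapy among the 7 enzymes followed here. It was at 198, 179, 187 and 198 CPM in lean and 162, 136, 98.3 and 103 CPM in obese tumors, without overlap. This was the only call of the 8 genes between obese and lean tumors before therapy, with a value of -0.61 on the log2 scale (standard error 0.20, adjusted p = 0.0371 in edgeR), where 12.9% of all tested genes were lower in obese tumors and groups did not overlap in 30.4%. At the fold limit of 2, 7.92% of all genes and 0 of the 8 were lower. Dhcr7 was called in 20 of 26 alternatives, and the adjusted p reached 0.114 without obese tumor 4 before therapy. Lower values were not particular to Dhcr7. Of 13 other cholesterol synthesis enzymes, 1 was called lower and 1 higher in obese tumors before therapy. Values below 0 were found for 11 of the 13 (median -0.21 on the log2 scale). After ETS the levels of Dhcr7 were 173, 180.3, 154 and 139.6 CPM in lean and 164, 152, 114 and 74.8 CPM in obese tumors. The ETS effect was -0.23 in lean (adjusted p = 0.362) and 0.015 in obese tumors (95% interval -0.41 to 0.44, adjusted p = 0.964, edgeR).

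**Figure D2:**
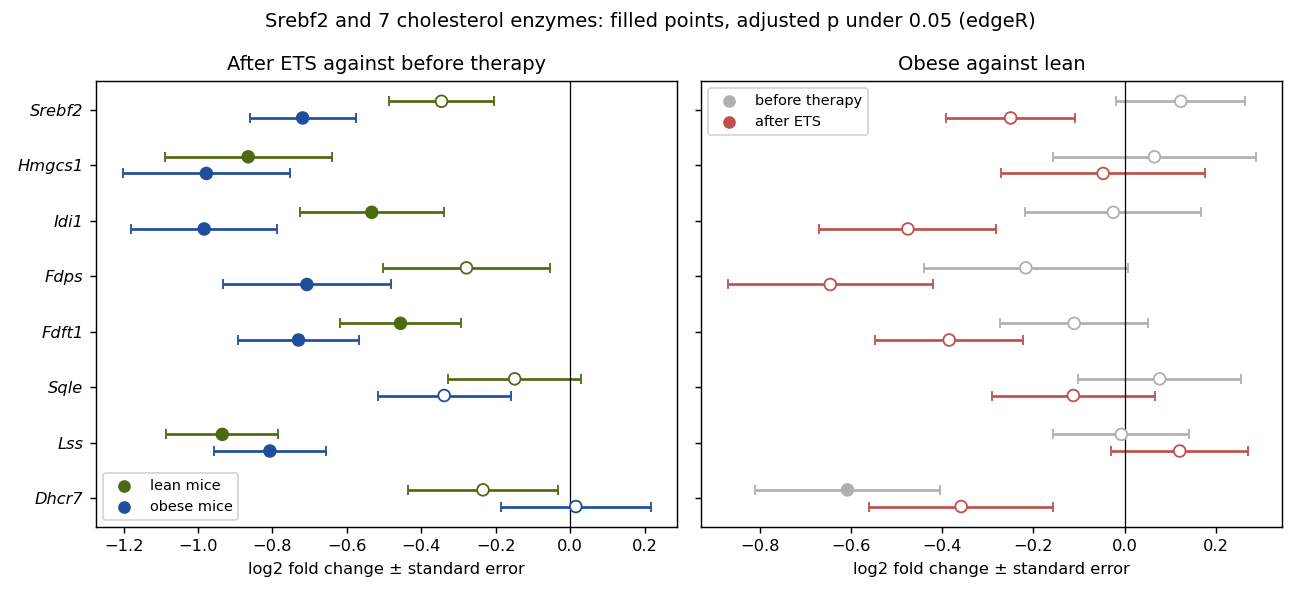
The x axes give log2 fold changes with their standard errors, after ETS against before therapy on the left and obese against lean on the right, and filled points have an adjusted p under 0.05 in edgeR's test. On the left 4 points for lean and 6 for obese mice are filled, and on the right only Dhcr7 before therapy.

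The study asks how obesity alters the response of tumors to chemotherapy, and the difference between the ETS effects in lean and obese tumors was therefore tested for each gene. No gene of the 8 was called (edgeR), where 16.4% of all tested genes were. DESeq2 also called 0 of the 8. The differences, lean minus obese, ran from -0.25 for Dhcr7 to 0.45 for Idi1. That of Srebf2 was 0.37 (95% interval -0.052 to 0.80, unadjusted p = 0.0813, the lowest of the 8, edgeR) and went to 0.19 without obese tumor 4 after ETS. The interval was -0.13 to 1.03 for Idi1 and -0.58 to 0.32 for Lss, so that differences of such sizes between the hosts could not be told from none with 4 tumors a group.

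After ETS, 0 of the 8 genes were called between obese and lean tumors in edgeR's test, against 5.58% of all tested genes. The 3 lowest p among the 8 were those of Fdps, Idi1 and Fdft1, all lower in obese tumors. Fdps had a value of -0.65 on the log2 scale (standard error 0.22, adjusted p = 0.0939 in edgeR). Idi1 had -0.48 and Fdft1 -0.38 (adjusted p = 0.144 and 0.158, edgeR). With DESeq2 1 gene, Fdps, was called (adjusted p = 0.0349), and over the alternatives its adjusted p ran from 0.0349 to 0.213. Without obese tumor 4 after ETS the value of Fdps was -0.41 (adjusted p = 0.150, edgeR).

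Across the 16 tumors the mean log2 CPM of the 7 enzymes followed the log2 CPM of Srebf2, with a Pearson r of 0.954. With the group means removed r was 0.942, and without obese tumor 4 after ETS it was 0.793. For the single enzymes r with Srebf2 ranged from 0.46 to 0.942, over tumors that share the group differences and the scaling of each library. In lean tumors the mean of the enzymes went from 7.08 ± 0.096 to 6.59 ± 0.16 log2 CPM after ETS, and in obese tumors from 6.96 ± 0.19 to 6.27 ± 0.46 log2 CPM (SD, n = 4 each). The genes most like Srebf2 over the 16 tumors were Gm38481 (r = 0.945), Parp1 (0.934), Acsl3 (0.932), Acat3 (0.927) and Srbd1 (0.925). Those most like the mean of the standardized levels of the 7 enzymes were Cyp51 (0.976), Gm38481 (0.964), Acat2 (0.963), Acsl3 (0.959) and Acat3 (0.958). Acat2 and Acat3 are close paralogs, and Gm38481 overlaps an annotated processed pseudogene, so that their counts are less certain.

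**Figure D3:**
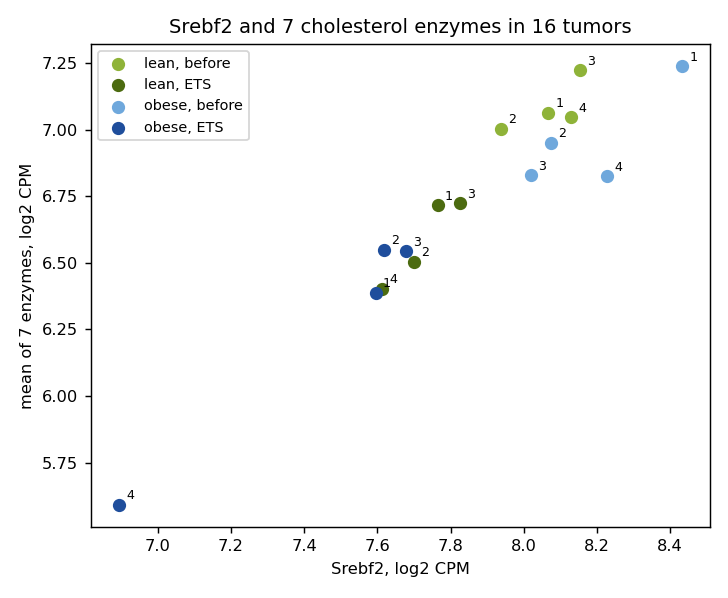
Each point is a tumor, with its number, at its log2 CPM of Srebf2 (x axis) and its mean log2 CPM of the 7 enzymes (y axis). Tumors after ETS lie at the lower left of those before therapy, with obese tumor 4 after ETS at the lowest end.

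The rest of the pathway was described by lists of genes, to be read against all tested genes, of which 22.8% fell and 21% rose in lean tumors and 19% fell and 21.2% rose in obese tumors. Of 13 other cholesterol synthesis enzymes, 5 fell and 0 rose in lean tumors (median -0.24), and 4 fell and 1 rose in obese tumors (median -0.45). Pmvk, the phosphomevalonate kinase, fell by 0.58 on the log2 scale in lean (adjusted p = 0.00485) and by 1.03 in obese tumors (adjusted p = 0.000122, edgeR). Its mean level went from 28.45 to 19.03 CPM in lean and from 39.04 to 19.16 CPM in obese tumors. Cyp51, which demethylates lanosterol, fell by 0.69 and 0.78 (adjusted p = 0.0177 and 0.0111), and Acat2, the thiolase at the entry of the pathway, by 0.59 and 0.77 (adjusted p = 0.0264 and 0.00735, edgeR). The gene that rose was Hsd17b7, a sterol ketoreductase, by 0.67 in obese tumors (adjusted p = 0.0421, edgeR). It was named after its value was seen. The number that fell in lean tumors was 2 without lean tumor 4 after ETS, where 1 rose, and 3 without lean tumor 3 before therapy or lean tumor 2 after ETS. The call of the gene that rose in obese tumors was lost when any 1 of 8 tumors was left out (lean tumor 4 before therapy, lean tumor 3 after ETS, obese tumors 2, 3 and 4 before therapy and obese tumors 1, 2 and 3 after ETS).

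Among 6 genes of SREBP processing, 1 fell in lean and 2 in obese tumors. Insig1, which holds the SREBP complex in the endoplasmic reticulum and is itself a target of the factor, went from 148 ± 20.97 to 76.3 ± 20.01 CPM in lean and from 154 ± 21.7 to 70.8 ± 23.4 CPM in obese tumors (SD, n = 4 each). Its log2 fold changes were -0.96 (adjusted p = 0.00360) and -1.12 (adjusted p = 0.00157, edgeR). Mbtps2, a protease that releases SREBPs, was the other gene called in obese tumors, with a log2 fold change of -0.22 (adjusted p = 0.0440, edgeR). The number that fell in obese tumors was 1 when any 1 of 9 tumors was left out (lean tumors 2 and 3 and obese tumors 2, 3 and 4 before therapy, lean tumor 3 and obese tumors 1, 3 and 4 after ETS), and without obese tumor 4 after ETS 1 gene also rose. In lean tumors 2 fell without lean tumor 1 after ETS. Srebf1, the paralog of Srebf2, had values of 0.0080 and 0.0054 (adjusted p = 0.965 and 0.978, edgeR).

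Of 4 targets for sterol uptake and transport, 2 fell in lean tumors and 3 in obese tumors, where the number was 1 without obese tumor 1 before therapy and 0 without obese tumor 1 after ETS. Stard4, a sterol carrier, fell by 0.64 in obese tumors (adjusted p = 0.0117, edgeR).

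The genes of oxysterols, sterol efflux and ester storage took another course. Of 12 tested, 2 rose and 3 fell in lean tumors, whereas 11 rose and 0 fell in obese tumors, and 10 rose there without obese tumor 4 after ETS. In lean tumors 1 rose without lean tumor 2 or 3 before therapy or lean tumor 1 after ETS. The difference between the ETS effects of the hosts was called for 6 of the 12, against 16.4% of all tested genes. Before therapy 7 of the 12 were lower in obese than in lean tumors and 0 higher, where 12.9% of all tested genes were lower. All 12 values were below 0 then, with a median of -0.66 on the log2 scale. After ETS 1 was higher in obese tumors and 0 lower (median 0.13), where 5.58% of all tested genes were called in either direction. Abcg1, a sterol exporter, changed by -2.84 in lean and 2.02 in obese tumors, and Nr1h3, the liver X receptor alpha, by -2.70 and 1.95. Ch25h, which makes 25-hydroxycholesterol, an inhibitor of SREBP processing, was at 3.55 ± 1.21 CPM in lean tumors before and 1.17 ± 0.534 CPM after ETS, and at 0.676 ± 0.208 and 2.38 ± 0.692 CPM in obese tumors (SD, n = 4 each). Its log2 fold changes were -1.60 (adjusted p = 0.00244) and 1.81 (adjusted p = 0.00152), and these differed by -3.41 (adjusted p = 0.000397, edgeR). The median summed levels of the macrophage, fibroblast, interferon, endothelial, adipocyte and T cell lists moved in the same directions as these 3 genes in both hosts, and their part was not tested.

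**Figure D4:**
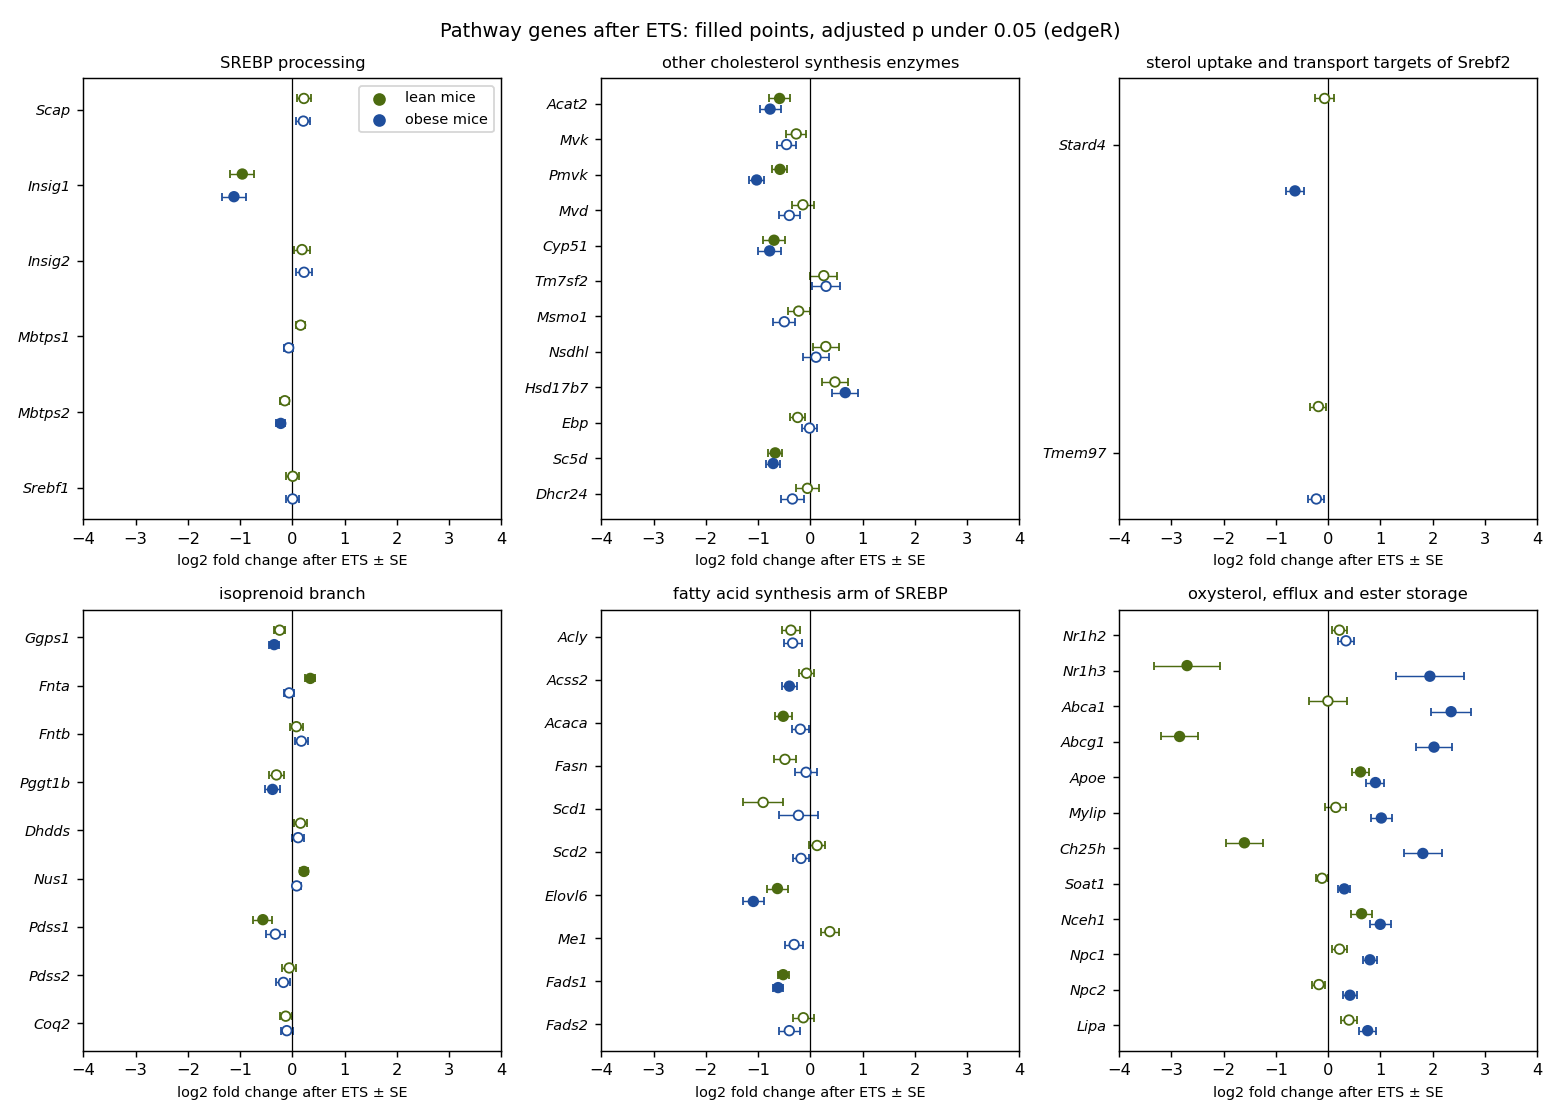
The x axis of each panel gives the log2 fold change after ETS with its standard error for the genes shown of a list, in lean and in obese mice, and filled points have an adjusted p under 0.05. Nr1h3, Abcg1 and Ch25h lie on opposite sides of 0 in the hosts, whereas Insig1 and Cyp51 lie below 0 in both.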

How the data were processed

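Messenger RNA of 16 B16F10 tumors was sequenced with stranded, paired-end libraries. The authors aligned the reads to mm10 with HISAT (HISAT2 2.1.0 in the submitters' processing notes) and quantified genes with StringTie 2.1.3b. The deposited counts are whole numbers that were not normalized, while TPM and FPKM, both computed by the authors with StringTie, are scaled to length and depth. TPM served for levels between genes and as an alternative, and the 16 FPKM columns were not used.

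Following the study's methods, the test left out 29568 of 45777 genes that lacked counts in 1 tumor or more. Counts were scaled by TMM and fitted with edgeR 4.0.16 (R 4.3.3) over all 16 tumors with a mean for each group, and 5 comparisons were tested with the quasi-likelihood test, adjusted by Benjamini-Hochberg over all tested genes. Each standard error is the log2 change divided by the root of F. The study used edgeR's exact test with 1 added to the counts, which was run as an alternative. Other alternatives were DESeq2 1.42.0 and its size factors, no exclusion, filterByExpr, limma-voom and limma on log2(TPM + 1) (limma 3.58.1), only the 2 groups compared, a replicate block, a fold limit of 2 and leaving out each tumor. The removal of the 100 most abundant genes was added after the data had been seen. The quasi-likelihood test was tested on simulated data. A first run failed on the difference between the ETS effects, where the share of recovered genes met the required limit without passing it. The criterion was then set anew, after the outcome of that run was known.

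The 8 genes, the 17 lists and the tests were chosen with earlier results of these data known. Named genes of a list were the up to 3 with the largest called log2 fold change, together with Insig1, Srebf1, Ch25h and the 5 genes most correlated with Srebf2 or with the enzymes. The single values of some listed genes are not reported here, while counts over lists include them. Log2 CPM used a prior count of 2. All 8 genes matched the GRCm38.p6 gene table by gene ID, and promoters come from RefSeq. Same-numbered tumors of different groups had correlations of their deviations from -0.112 to 0.452, and tumors of different number from -0.583 to 0.505. No label ties a number to a shared source, so same-numbered tumors were not treated as pairs. Nothing in the labels says that the 4 tumors of a group came from separate cultures of cells, and p-values measure the spread between these tumors.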

Additional observations from a re-analysis of the deposited data

Results flagged for a closer look

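Within groups of 4 tumors, 32 sets of values of the 8 genes were examined for a tumor far from the others, and 3 were past Dixon's limit, where chance gives about 1 in 20. Srebf2 in obese tumor 4 after ETS (119 CPM) and Sqle in the same tumor (78.1 CPM) lay far below the other tumors of the group, and Fdps in obese tumor 1 before therapy (367 CPM) lay far above.

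Lean and obese tumors differed in their ETS effect, by the test of the difference itself (edgeR, adjusted p under 0.05), for 6 genes of oxysterols, efflux and storage, and each had the lower value in lean tumors. The differences, lean minus obese on the log2 scale, were -2.36 for Abca1, -4.87 for Abcg1, -3.41 for Ch25h, -0.87 for Mylip, -0.60 for Npc2 and -4.65 for Nr1h3.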

How the results depend on the processing

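The number of the 8 genes called lower after ETS in lean tumors was 4, went to 2 without the exclusion of low counts and to 8 with limma on log2(TPM + 1), where 7272 of 16209 genes were called lower, and ran from 2 to 5 with tumors left out, lowest without lean tumor 1 or 3 before therapy or lean tumor 2 or 4 after ETS. Under the TPM values the median of all genes in lean tumors was -0.275, and relative to that shift the value of Srebf2 was -0.43 and that of Lss -0.98. In obese tumors the number was 6 and ran from 5 to 6 with tumors left out. At the fold limit of 2 with an unadjusted p under 0.05, 0 of the 8 genes were called in lean tumors, in obese tumors or before therapy. The number lower in obese tumors before therapy, 1 (Dhcr7), ran from 0 to 1 with tumors left out, and the call was lost without any of the 4 lean tumors before therapy or without obese tumor 3 or 4 before therapy. After ETS, the number lower in obese tumors was 0, and 1 with DESeq2, 1 with the replicate block, and 0 to 1 with tumors left out (1 without obese tumor 2 after ETS). The replicate block changed no other call of the 8 genes. For the lists, it moved the number that fell in obese tumors from 4 to 7 among the other cholesterol synthesis enzymes and from 2 to 1 for SREBP processing, and in lean tumors from 1 to 2 for the isoprenoid branch and from 3 to 5 for the fatty acid arm, where 1 rose. Between hosts, 2 in place of 1 of the other cholesterol synthesis enzymes were lower in obese tumors before therapy, and 4 in place of 0 after ETS. Before therapy 1 in place of 0 was lower for SREBP processing, and 2 in place of 1 were higher for the isoprenoid branch. For oxysterols, efflux and storage 2 in place of 1 were higher after ETS and 10 in place of 7 lower before therapy. The difference of ETS effects was called for 8 in place of 6 of them. After ETS 12 in place of 11 of them rose in obese tumors and 3 in place of 2 in lean tumors. In obese tumors 4 in place of 3 genes of the fatty acid arm fell. In the difference of ETS effects, 1 gene each in place of 0 was called for the isoprenoid branch and the fatty acid arm. Correlations of deviations were over 0.1 in 11 of 24 same-numbered pairs and in 18 of 72 pairs of different number. The median was 0.0729 in same-numbered pairs and -0.0398 in the others. Whether some numbers share a source is not known. The cause of the changes between alternatives was not tested, and no called value of the 8 genes changed its sign in any alternative.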

Other observations

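Of 10 genes of the fatty acid synthesis arm of SREBP, 3 fell in each host and none rose, where 22.8% of all tested genes fell in lean and 19% in obese tumors. In lean tumors the number was 6 without obese tumor 4 after ETS and 1 without lean tumor 2 after ETS. Elovl6, which elongates fatty acids, fell by 0.63 on the log2 scale in lean (adjusted p = 0.0221) and by 1.09 in obese tumors (adjusted p = 0.00102, edgeR), and Fads1, a desaturase, by 0.52 and 0.62 (adjusted p = 0.00106 and 0.000395). Me1, the malic enzyme that supplies NADPH, had a higher level in obese than in lean tumors before therapy, by 1.35 on the log2 scale (adjusted p = 5.01e-05, edgeR).

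Of 9 genes of the isoprenoid branch, which uses the farnesyl diphosphate made by Fdps, lean tumors had 2 that rose and 1 that fell, and obese tumors had 2 that fell. Of all tested genes, 21% rose and 22.8% fell in lean tumors, and 19% fell in obese tumors. Without obese tumor 4 after ETS 2 fell in lean and 1 in obese tumors. With other tumors left out, the number that fell was 0 in lean tumors (lean tumor 2 before therapy or 4 after ETS) or 2 (lean tumor 3 or obese tumor 1 after ETS, obese tumor 3 before therapy), and 0 in obese tumors (obese tumor 3 before therapy or 1 after ETS), 1 (lean tumor 1 after ETS, obese tumor 2 or 4 before therapy) or 3 (obese tumor 1 before therapy). The number that rose in lean tumors was 1 without lean tumor 2 or 3 before therapy or 1 after ETS. Pdss1, which builds the tail of ubiquinone, fell by 0.56 in lean tumors (adjusted p = 0.0206, edgeR). Pggt1b, a subunit of a prenyltransferase, fell by 0.38 in obese tumors (adjusted p = 0.0378, edgeR). Fntb, a subunit of farnesyltransferase, was lower in obese than in lean tumors before therapy, with a log2 fold change of -0.39 (adjusted p = 0.0319, edgeR).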
